A study of Caenorhabditis elegans with 36 samples.

Results

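The genes described here are 100 genes of the nematode *Caenorhabditis elegans* that carry a clone-style identifier in the expression table, such as *C14C10.1*, in place of a letter name. They were chosen for a dip in the middle of adult life in control worms, with high expression at day 1, low expression at days 3, 5 and 7, and high expression again at days 9 and 11. Of 10155 genes with such an identifier, 8143 reached a level of 1 CPM (read counts of a gene scaled to the size of its library) in at least 3 of 36 libraries, and the 100 with the highest score were taken. The score was computed on group means of log2(CPM + 1). It is the smaller of the day 1 mean and the mean of days 9 and 11, minus the mean of days 3, 5 and 7, in the control libraries. All 18 control libraries therefore chose the genes, and every value of these libraries, and every comparison that includes them, is given as a description without a test.

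The libraries were made from polyA RNA of whole wild-type N2 worms collected on every other day of adult life from day 1 to day 11. Each of the 12 groups, 1 per treatment and day, had 3 replicate samples, described in the paper as biological. Worms were fed from an early stage with bacteria carrying the empty vector (ev, control RNAi) or with *cco-1* RNAi bacteria, which made up 50% of the food. The gene *cco-1* codes for a part of cytochrome c oxidase in mitochondria. Its transcript had group means from 128 to 275 CPM in ev worms and from 60.5 to 185 CPM in *cco-1* RNAi worms, with the lower mean under *cco-1* RNAi on every day. RNAi by feeding is not aimed at a chosen tissue, and whether progeny were kept apart from the ageing worms is not given in the sources used here.

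N2 worms are mostly self-fertile hermaphrodites. Each makes a limited stock of sperm in the last larval stage and then switches its germline to oocytes for the rest of its life. Sperm genes are transcribed before the maturation divisions of the male germ cells, and mature sperm of this animal make no new RNA. Sperm are crawling cells driven by the major sperm proteins, which are encoded by the large *msp* gene family. The Argonautes ALG-3 and ALG-4 act with small RNAs on genes of spermatogenesis.

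In ev worms the 100 genes stood lower at days 3, 5 and 7 than at day 1, by a median of 2.33 on the log2(CPM + 1) scale, and stood higher again at days 9 and 11, by a median of 2.14. The median of the group means was 23.6 CPM on day 1 and then 3.32 CPM on day 3, 2.12 CPM on day 5 and 5.66 CPM on day 7, before it reached 16.5 CPM on day 9 and 20.8 CPM on day 11. The lowest group mean lay at day 5 for 96 genes and at day 3 for the other 4, which were *C50C3.2*, *F26D2.10*, *Y67A10A.3* and *F32B4.2*, the last 3 of them named after their values were seen. From one sampled day to the next, the median difference in log2(CPM + 1) was -2.46 from day 1 to day 3, -0.50 to day 5, 1.19 to day 7, 1.35 to day 9 and 0.33 to day 11. For all 100 genes every ev library of days 1, 9 and 11 lay above every ev library of days 3, 5 and 7, as it did for 10.1% of the 15713 genes tested. The rule favoured that pattern, and the share is given only as its background. The score ran from 1.98 to 2.55, with a median of 2.11. Levels come from whole worms, in which fewer cells of a type and less RNA per cell cannot be told apart.

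**Figure D1:**
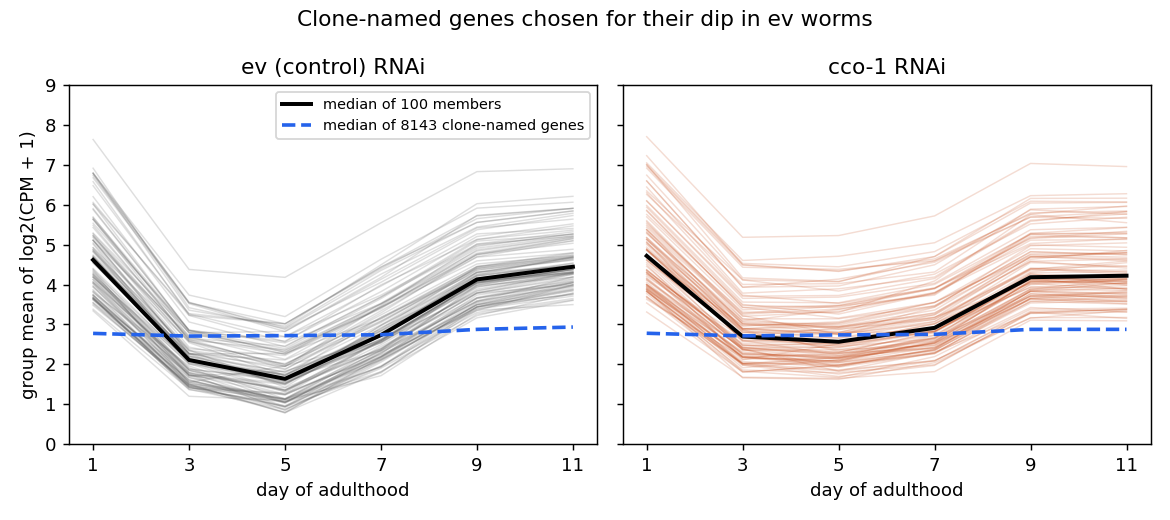
Group means of log2(CPM + 1) of the 100 genes (thin lines) by day of adulthood in ev and *cco-1* RNAi worms, with their median (black) and the median of 8143 clone-named genes (dashed blue). The members were chosen on the ev values. In ev worms the median falls to its lowest level at day 5. In *cco-1* RNAi worms it varies less from day 3 to day 7 and stays at a higher level. There it is 2.70 at day 3, 2.57 at day 5 and 2.92 at day 7. The dashed median changes little.

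The highest score belonged to *C14C10.1* (WBGene00007584), which lies on chromosome V from position 12588330 to 12589644 of assembly WBcel235 and has 6 exon blocks. Its ev libraries held 38.9, 34.9 and 35.6 CPM on day 1, then 5.24, 3.61 and 4.48 CPM on day 3, followed by 3.52, 2.37 and 2.80 CPM on day 5. They held 10.7, 10.2 and 9.37 CPM on day 7, then 33.4, 31.5 and 29.3 CPM on day 9 and finally 37.9, 38.7 and 40.4 CPM on day 11. The day 11 level of this gene thus overlapped that of day 1. Under *cco-1* RNAi the libraries held 42.1, 44.8 and 40.1 CPM on day 1, then 8.97, 8.41 and 8.28 CPM on day 3, followed by 9.41, 8.92 and 10.1 CPM on day 5. They held 12.4, 13.5 and 11.8 CPM on day 7, then 35.6, 39.6 and 32.9 CPM on day 9 and finally 36.6, 34.1 and 34.4 CPM on day 11. Each *cco-1* RNAi library of day 3 or day 5 lay above each ev library of the same day. An exon of *C14C10.1* overlaps *ttr-43*, and reads were counted without regard to strand, so that its level is uncertain.

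*Y113G7C.1* had the second highest score, 2.51, and belonged both to the 10 most abundant members and to the 6 with the deepest dip under *cco-1* RNAi. It lies on chromosome V from 20317742 to 20324032. The ev libraries gave 109.3, 104.9 and 111.9 CPM at day 1, 7.09, 6.93 and 6.35 CPM at day 5, and 70.9, 74.1 and 74.1 CPM at day 11. The *cco-1* RNAi libraries gave 98.4, 109 and 110.4 CPM at day 1, 17.6, 13.2 and 16.9 CPM at day 5, and 75.1, 63.1 and 74.5 CPM at day 11. This gene stayed below its day 1 libraries at day 11 in either RNAi, whereas *C14C10.1* did so only under *cco-1* RNAi.

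Of the other 13 genes with the highest scores, *C50C3.2*, named *spc-2* in the annotation, had the longest coding sequence of all members, 6708 bases. Its score was 2.36. It stood at 50.9, 49.1 and 45.3 CPM in ev libraries of day 1, at 6.15, 5.63 and 6.53 at day 5, and at 60.2, 57.6 and 59.5 at day 11, when each library lay above those of day 1. *C18E9.8*, *F44G3.7*, *ZK550.5*, *B0205.10*, *C06A8.6*, *W03F11.4*, *T02E1.7*, *C18H7.4*, *ZC477.7*, *T16A9.5*, *B0379.2* and *F13D12.9* had scores between 2.22 and 2.32. *ZK550.5* is named *phyh-1* in the annotation, after phytanoyl-CoA hydroxylase, an enzyme of the breakdown of branched fatty acids in mammals. *F13D12.9* is named *fcmt-1* there.

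Members were expressed at modest levels. Their mean over the 36 libraries ran from 5.40 to 91.4 CPM with a median of 12.7, and no member lay at the lowest value of any library. *F49C12.15*, on chromosome IV from 9324456 to 9327516, was the most abundant. Its ev libraries held 199.6, 199 and 194 CPM at day 1, 16.8, 16.7 and 17.8 CPM at day 5, and 118.6, 117.8 and 119.02 CPM at day 11. Its *cco-1* RNAi libraries held 207, 210.2 and 205 CPM at day 1, 40.8, 31.4 and 37.9 CPM at day 5, and 139.6, 106 and 126 CPM at day 11. The day 5 libraries of the 2 RNAi treatments did not overlap, whereas those of day 11 did. *T10E9.4*, *W03F11.4*, *Y38C1AA.7*, *W03D8.9*, *Y57G11A.2*, *Y69E1A.1*, *K06A5.2* and *F13D12.9* complete the 10 most abundant with *Y113G7C.1*. Per kb of exon the order differed, with 84.5 CPM per kb for *Y38C1AA.7*, 43.3 for *W03D8.9* and 34.0 for *F49C12.15*, and a median of 9.93 over the members.

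The *cco-1* RNAi libraries did not enter the choice, and the dip was tested in these 18 libraries alone, with limma on all 15713 genes and a threshold of 0.5 on the absolute log2FC and of 0.05 on the Benjamini-Hochberg adjusted p. All 100 genes fell from day 1 to the mean of days 3, 5 and 7, a fall called for 22.1% of all genes tested, and none rose, against 28.3% of all genes. All 100 rose from the middle days to the mean of days 9 and 11, against 16.9% of all genes, and none fell, against 16.6%. In all 100 genes every *cco-1* RNAi library of days 1, 9 and 11 lay above every one of days 3, 5 and 7, as it did in 9.32% of all genes tested. Both sides of the dip were called for all 100 genes, compared with 8.29% of all genes and 12.5% of the clone-named genes. The median log2FC of the members was -2.02 for the fall and 1.52 for the rise, and over all genes it was 0.14 and 0.04. The largest limma adjusted p among the members was 8.5e-10 for the fall and 2.8e-09 for the rise, with standard errors of at most 0.147 and 0.116. The fit treated all libraries as independent. Those of days 9 and 11 deviated together in replicates 1 and 2, so that the standard errors and p of the rise may be too small. The *cco-1* RNAi libraries had been normalized by the authors together with the ev libraries.

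**Figure D2:**
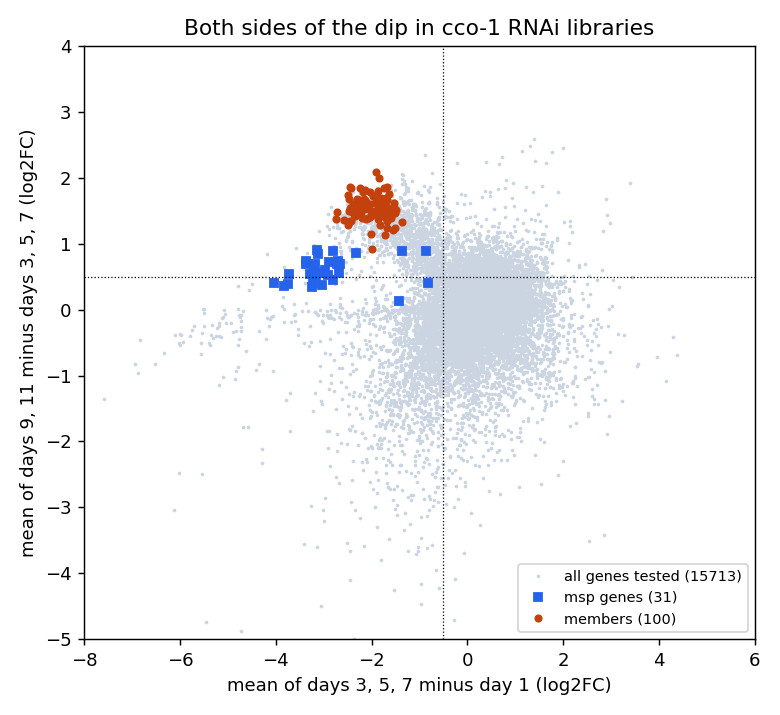
The 2 sides of the dip in *cco-1* RNAi worms, with the log2FC from day 1 to days 3, 5 and 7 on the horizontal axis and from these days to days 9 and 11 on the vertical axis, for all genes tested (grey, 3 of which lie outside the plotted range), the members and the *msp* genes. Dotted lines mark an absolute log2FC of 0.5; the 100 members lie past both lines at the upper left, and the *msp* genes lie farther left and lower.

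The lower level was already present at day 3. From day 1 to day 3 all 100 members were lower in limma's test, with a median log2FC of -2.07, against 19.6% of all genes. Between day 7 and day 9 all 100 were higher, with a median log2FC of 1.31, against 13.3% of all genes. Between day 9 and day 11 limma called 0 members in either direction, and it called 0.00636% of all genes as higher and 0.0127% as lower. At an unadjusted limma p below 0.05, 9 members differed between these days, of which 7 were higher, compared with 13.6% of all genes. The members' log2FC for this interval lay between -0.28 and 0.27, with a median standard error of 0.10. Libraries of these days deviated together in some replicates, so that this standard error may be too large. The lack of calls does not show that the levels of these days were equal.

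The depth of the dip varied among the members under *cco-1* RNAi. The same score computed on the *cco-1* RNAi groups ran from 0.92 to 1.91. *C50C3.2*, *Y113G7C.1*, *B0393.4*, *B0205.10*, *C36H8.1* and *F13D12.9* had the highest values, from 1.81 to 1.91. In *C50C3.2* the *cco-1* RNAi libraries stood at 42.8, 42.7 and 45.5 CPM at day 1, at 10.5, 7.09 and 9.23 at day 5, and at 49.5, 56.7 and 52.4 at day 9. Its fall had a log2FC of -1.91 ± 0.09 (SE; limma adjusted p = 9.1e-15) and its rise one of 2.08 ± 0.07 (SE; limma adjusted p = 1.5e-16).

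At the other end were *B0252.5*, *C54G4.3*, *C05C12.5*, *ZK1225.4*, *Y39B6A.30* and *B0379.2*, with values between 0.92 and 1.24. *B0252.5* had the shallowest dip. Its *cco-1* RNAi libraries stood at 28.9, 33.5 and 33.1 CPM at day 1, at 6.70, 6.02 and 6.99 at day 5, at 15.5, 15.4 and 15.1 at day 9, and at 14, 14.4 and 12.8 at day 11. The late libraries thus lay above the middle ones and below those of day 1. The fall of *B0252.5* was as deep as the median, at -1.99 ± 0.08 (SE; limma adjusted p = 7.1e-16), and its rise was 0.92 ± 0.06 (SE; limma adjusted p = 1.2e-11).

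**Figure D3:**
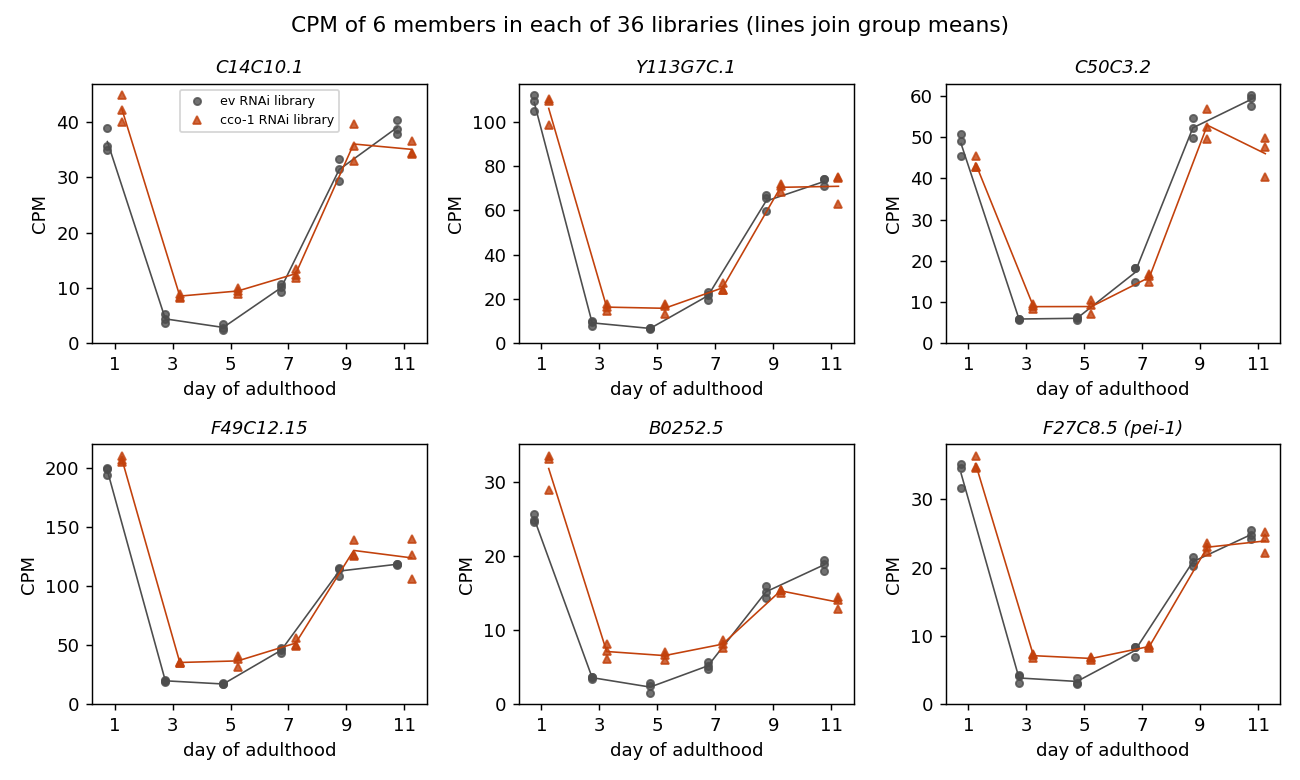
CPM of 6 members in each of the 36 libraries (circles, ev; triangles, *cco-1* RNAi; lines join group means) by day of adulthood. In all 6, and within either treatment, the libraries of days 3, 5 and 7 lie below those of days 1, 9 and 11; *F49C12.15* is the most abundant member, *B0252.5* has the smallest rise under *cco-1* RNAi, and *F27C8.5* is the gene named *pei-1*.

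Members differed in how far they came back. In ev worms the mean of days 9 and 11 minus day 1 had a median of -0.21 on the log2(CPM + 1) scale, and it was above 0 for 27 members. Its lowest value was -1.30, in *W03D8.9*, which stood at 117, 120.5 and 121 CPM at day 1 and at 51.5, 57.1 and 54 CPM at day 11. The highest was 0.60, in *F40F12.3*, which stood at 12.7, 11.7 and 12.7 CPM at day 1 and at 21.5, 23.4 and 21.8 CPM at day 11. *F40F12.3* was chosen after its values were seen. In neither gene did the libraries of these days overlap.

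Under *cco-1* RNAi the same difference had a median of -0.48 and was above 0 for 8 members. In the test of day 11 against day 1 within *cco-1* RNAi, 47 of 100 members were lower, against 23.7% of all genes, and 0 were higher, against 34% of all genes. The other 53 did not pass the threshold, which does not show that they had returned to the day 1 level. *W03D8.9* fell furthest, by 1.26 on the log2 scale, with an SE of 0.09 and a limma adjusted p of 1.2e-11. Across the 100 members, the late level relative to day 1 in either treatment was related, with a Pearson's r of 0.88 and a Spearman's rho of 0.88. These are descriptions across genes, which are not independent replicates, and the ev values had chosen the genes.

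**Figure D4:**
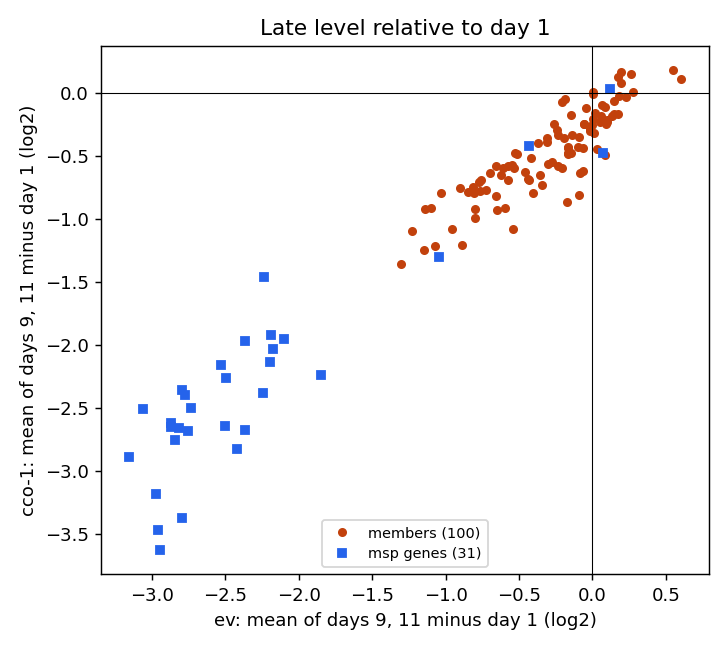
The mean of days 9 and 11 minus day 1 on the log2(CPM + 1) scale under ev (horizontal) and *cco-1* RNAi (vertical) for the 100 members and 31 *msp* genes. Members spread from -1.30 to 0.60 in ev worms, while the *msp* genes run from -3.16 to 0.12 there, most of them far below the members.

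The trough was shallower in *cco-1* RNAi worms than in ev worms. At day 5 the median member stood 1.01 higher on the log2(CPM + 1) scale in *cco-1* RNAi worms, and at day 3 it stood 0.59 higher. At days 1, 7 and 9 the median difference was 0.17, 0.21 and 0.16, and at day 11 it was -0.18. All 3 *cco-1* RNAi libraries lay above all 3 ev libraries in 99 members at day 5, against 39.3% of all genes, and in 96 members at day 3, against 27.3%. At days 1, 7 and 9 they lay above in 61, 59 and 53 members, against 23.4%, 36.5% and 26.6% of all genes, and below in 0, 4 and 7, against 25.6%, 30.1% and 28.1%. At day 11 they lay above in 11 members, against 27.5% of all genes, and below in 54, against 39.9%. These are descriptions, since members with a low ev trough were preferred by the rule.

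The sum over the 100 genes gives the same picture library by library. In ev worms it ran from 3419 to 3457 CPM on day 1, from 394 to 455 CPM on day 3, from 270.2 to 296 CPM on day 5, from 772 to 802 CPM on day 7, from 2104 to 2237 CPM on day 9 and from 2627 to 2701 CPM on day 11. In *cco-1* RNAi worms it ran from 3769 to 4038 CPM at day 1, from 728 to 737 CPM on day 3, from 689 to 723 CPM on day 5, from 924 to 980.3 CPM on day 7, from 2488 to 2550 CPM on day 9 and from 2388 to 2753 CPM on day 11, where replicate 2 was the lowest. At days 1, 3, 5, 7 and 9 the 2 treatments did not overlap and the sum was higher under *cco-1* RNAi, whereas at day 11 they overlapped.

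A list of sperm genes, taken from gene names and holding no member, moved mostly in the same directions. Of its 80 tested genes 74 fell and 64 rose under *cco-1* RNAi, and 62 passed both tests, with a median log2FC of -2.55 and 0.74. The 31 *msp* genes all fell, by a median of -3.06, and 22 of them rose, with a median log2FC of 0.55 for all 31. In ev worms the late level relative to day 1 had a median of -2.50 for the *msp* genes, -0.86 for the other 49 sperm genes and -0.21 for the members. The difference between *cco-1* RNAi and ev worms at day 5 had a median of 0.85 for the sperm list. The list and the members were both picked with earlier results of these data known.

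A few genes of the list had time courses like those of the members. In ev worms 3 of its 80 tested genes, *spch-3*, *spe-4* and *gsp-3*, scored at least as high as the lowest member. *gsp-4* scored 1.88, which is below the lowest member. The median score was 1.16 for the list and 2.11 for the members. *spe-4*, a presenilin relative needed in sperm, had a group mean of 21.6 CPM at day 1, 2.14 at day 5 and 20.5 at day 11 in ev worms. *gsp-3*, a sperm protein phosphatase, had 98.2, 5.97 and 58.7 CPM on the same days, and its near-identical copy *gsp-4* had 109.5, 6.72 and 46.1 CPM. Only unique reads were counted, so that reads shared by the pair may have been left out. Both genes and *spe-4* were chosen after their values were seen. *spe-4*, *gsp-3* and *gsp-4* all fell and rose again under *cco-1* RNAi, with a log2FC for the rise between 1.39 and 1.59.

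Among genes with a letter name, 26 of 7570 scored at least as high as the lowest member, a share of 0.343%, compared with 1.23% of the clone-named genes. The 10 highest were *pck-3*, *acs-10*, *tbx-34*, *acs-18*, *kel-10*, *alg-3*, *spch-3*, *oac-19*, *ant-1.4* and *wht-5*, with scores from 2.17 to 2.40. *alg-3*, the Argonaute of spermatogenesis, had a group mean of 81.1 CPM at day 1, 5.20 at day 5 and 47.9 at day 11 in ev worms. *spch-3*, which encodes a basic protein of sperm chromatin, had 69.2, 4.65 and 52.6 CPM. Other names of the 10 stand for metabolic families, with *pck-3* for phosphoenolpyruvate carboxykinase, *acs-10* and *acs-18* for acyl-CoA synthetases, and *ant-1.4* for a mitochondrial ATP/ADP carrier.

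Of the members, 7 have a letter name in the newer annotation. *F27C8.5* is *pei-1*, whose protein builds granules that are carried into sperm, and it was singled out after its values were seen. It lies on chromosome IV from 9589795 to 9592513. Its ev libraries stood at 34.6, 35.2 and 31.6 CPM at day 1, at 2.96, 3.13 and 3.91 at day 5, and at 24.2, 25.5 and 24.7 at day 11. In the *cco-1* RNAi libraries its fall was -2.11 ± 0.06 (SE; limma adjusted p = 3.4e-18) and its rise 1.54 ± 0.05 (SE; limma adjusted p = 4.8e-17). *W01B6.2* and *Y38H8A.3* are *ttbk-4* and *ttbk-8.1*, of the tau tubulin kinase family, and *F07A5.2* is *spsp-1*, all 3 named here for their annotation.

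None of the 100 genes lies on the X chromosome. Chromosome IV held 36 members, chromosome I 25, chromosome V 16, chromosome II 14 and chromosome III 9. Of the 8062 clone-named genes tested that were found in the annotation, 17.6% lie on chromosome IV, 16.2% on chromosome I and 13.7%, or 1107 genes, on X. The sperm list also had 0 of 80 genes on X. The rule did not use position, and these shares were not tested.

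**Figure D5:**
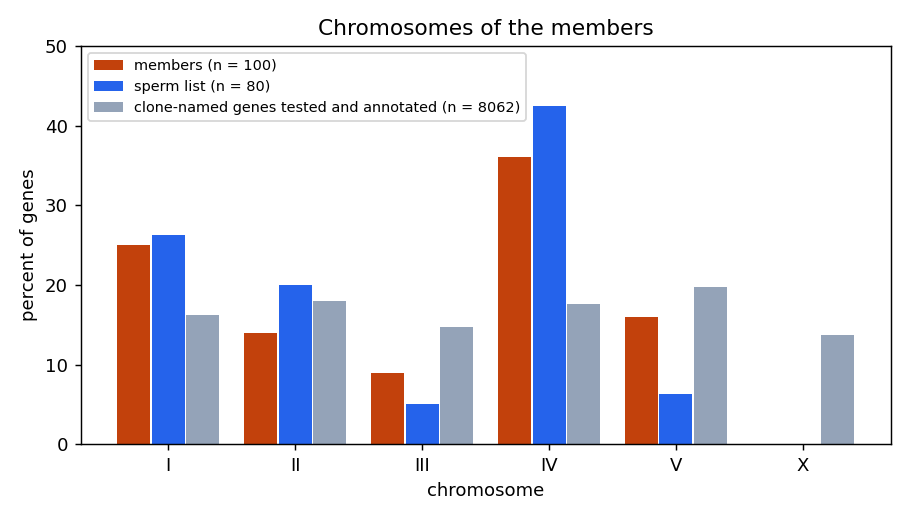
Percent of genes on each chromosome for the members, the sperm list and the clone-named genes tested. Members and sperm genes are absent from X, where 13.7% of the clone-named genes lie, and 36% of the members lie on chromosome IV.

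All but 1 of the members were annotated as protein-coding genes, the exception being *C04G2.3*, a pseudogene. The median coding length was 1047 bases, compared with 912 for clone-named genes, and the median number of exon blocks was 6, compared with 5. In 25 members an exon is overlapped by another annotated gene, and without strand the reads of the overlap cannot be assigned. The counting mode given in the paper's methods leaves out reads that fall on both genes, so that such members may have lost reads. This holds for *C14C10.1*, *C06A8.6*, *T02E1.7*, *T02E1.6*, *T16A9.5*, *F13D12.9*, *B0393.4*, *T10E9.4*, *Y57G11A.2*, *Y38H8A.3*, *C27D8.2*, *C31H1.1*, *C09B9.4* and *C15H11.1*, and for *ZK550.5* with *gtf-2E1* and *K06A5.2* with *cdc-25.1*, whose levels are uncertain to that extent.

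Of the members, 16 lie in 8 pairs within 10 kb of each other. *T02E1.7* and *T02E1.6*, on chromosome I, are on opposite strands with a gap of 198 bases. *T02E1.7* stood at 19.4, 16.4 and 17.7 CPM in ev libraries of day 1 and at 20.9, 21 and 20.9 CPM at day 11. *T02E1.6* stood at 12.2, 10.6 and 11.6 CPM at day 1 and at 20.3, 19.8 and 19.5 CPM at day 11, so that it was above its own day 1 libraries and its neighbour was only slightly so. *C09B9.2* and *C09B9.4* are 549 bases apart, *C31H1.5* and *C31H1.1* 658, *C04G2.5* and *C04G2.3* 685, *C27D8.2* and *C27D8.1* 3048, and *M70.3* and *M70.1* 3415, all of them on chromosome IV. Of these 6 pairs, only *C27D8.2* and *C27D8.1* are on the same strand.

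The lower end of the choice was not a gap in the scores. The last members, *T02E1.6*, *C15H11.1* and *C04G2.3*, had scores of 1.983, 1.980 and 1.979. The next genes, *H20J04.1*, *F01G10.5* and *C16C8.18*, had 1.979, 1.976 and 1.974, and scores of 1.52, 1.76 and 1.48 on the *cco-1* RNAi groups, which lie within the range of the members.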

How the data were processed

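PolyA RNA of whole worms was sequenced in 36 libraries (12 groups of 3). The authors mapped reads to WBcel235 with STAR (2.73a in the submitters' processing notes, which also name edgeR 3.24.3; the paper's methods give another STAR version), counted unique reads over exons without strand, and normalized with limma-voom. The values were deposited as CPM on a linear scale, apparently quantile-normalized by the authors, with library sums from 916765 to 953972 and no value at 0. Depth is not given, so no counting interval can be had. The labels give 1 collection stage for all samples, and days were taken from the sample titles. The authors' fold changes, P values and gene set results were not used. Columns of per-sample values left unmapped numbered 0.

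Genes with 1 CPM in at least 3 libraries were kept (15713 of 18949). limma 3.58.1 with statmod 1.5.0 in R 4.3.3 was fitted to log2(CPM + 1), with a pseudocount of 1, of the 18 *cco-1* RNAi libraries (6 groups, 12 residual degrees of freedom, trended and robust variances), and p was adjusted over all genes tested. The fold changes are on this scale and understate changes of low genes. The fit was tested on simulated data. Positions and names are from the Ensembl release 115 annotation of WBcel235, in which all 100 members were found. Plots were made in Python 3.11.15 with matplotlib 3.10.9.

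The members and gene lists were chosen with earlier results of these data known. The named genes are members with the 15 highest scores, the 10 highest mean CPM, the 6 highest and 6 lowest scores under *cco-1* RNAi, the 3 on each side of the limit, and the 6 closest pairs within 10 kb, with the 10 highest letter-named genes. Protein identity between members was not analysed here. Alternatives were other pseudocounts, filters, normalization, fits and thresholds, a replicate block and each library left out.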

Additional observations from a re-analysis of the deposited data

How the results depend on the processing

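The choice of members depended on the pseudocount. With 0.1 CPM, 45 of the 100 genes were among the 100 highest scores, and with 5 CPM, 66 were. No filter, a filter of 5 CPM and quantile normalization kept all 100, leaving out each ev replicate number kept 91 to 93, and taking the lower of the late days kept 88. In the *cco-1* RNAi libraries the counts of members that fell, rose and did both stayed at 100 in each of the 18 fits that left out 1 library. A further fit left out replicate 2 of *cco-1* RNAi at days 9 and 11 together. Over these 18 fits and the further fit, the count of members lower at day 11 than at day 1 was 42 to 52, against 47. That count was 8 at a log2FC threshold of 1, where fewer genes can pass by construction. At that threshold both sides of the dip were called for 99 members, since *B0252.5* with a rise of 0.92 no longer passed. The shares of all genes at a threshold of 1 were not counted, so these counts have no background beside them. The further fit without replicate 2 at days 9 and 11, an alternative chosen after seeing the data, gave a count of 42 for day 11 against day 1. Most libraries with the same replicate number did not deviate together (median correlation -0.04, above 0.1 in 7 of 45 pairs). Between days 9 and 11, however, the correlation was 0.65 for replicate 1 and 0.66 for replicate 2, against -0.03 for replicate 3, and the highest among pairs with different numbers was 0.19. With a replicate block the counts were 100 for both sides of the dip, 47 for day 11 against day 1 and 0 in either direction for day 11 against day 9. With a block and days 9 and 11 alone, also chosen after seeing the data, 0 members passed both thresholds and 1 had an adjusted p below 0.05 in limma. An unadjusted limma p below 0.05 was found for 18 of the 100 members in that fit, against 20.5% of all genes. Without the block, the same days alone gave 3 members, against 8.35% of all genes. The 18 libraries without a block gave 9 members, against 13.6% of all genes. Between day 9 and day 11, 0 members were called as higher in each alternative that left out libraries. Unknown depth limits the precision of the lowest values, with 15 to 33 distinct values below 1 CPM in a library.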

Other observations

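Few markers of other cell types dipped. Under *cco-1* RNAi, 0 of 26 oocyte and eggshell genes, 0 of 38 germline genes, 0 of 17 early embryo genes, 0 of 30 body wall muscle genes and 0 of 25 intestine genes passed both tests of the dip, compared with 62 of 80 sperm genes and 8.29% of all genes tested. With that share, a count of 0 in a list as short as the early embryo list says little. Of the oocyte and eggshell genes 25 of 26 were higher at days 3, 5 and 7 than at day 1, and of the body wall muscle genes 25 of 30 were lower at these days and 25 of 30 lower again at days 9 and 11. Of the remaining lists, C-type lectins had 13 of 122 genes past both tests, F-box genes 8 of 295, neuropeptides 2 of 94, the collagen list 1 gene in all, histones 1 of 30 and ribosomal proteins 1 of 80. The lists of neurons, chemoreceptors, cilia, pharynx, hypodermis and moulting, vitellogenins, gonad sheath and spermatheca, and the mitochondrial unfolded protein response had 0.

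*fog-1* and *fog-3*, which direct germ cells to become sperm, were looked up after the data were seen. In ev worms *fog-1* had a group mean of 18 CPM on day 1, 27.5 CPM on day 5 and 142 CPM on day 11, and *fog-3* had 8.30, 3.79 and 42.6 CPM. Under *cco-1* RNAi both rose from the middle days to days 9 and 11, by a log2FC of 1.37 ± 0.03 for *fog-1* and 1.72 ± 0.06 for *fog-3* (SE; limma adjusted p of 1.1e-18 and 8.0e-16). *fog-1* was also higher at the middle days than at day 1, by 1.03 ± 0.04 (SE; limma adjusted p = 1.5e-15), so that it did not dip. The fall of *fog-3* under *cco-1* RNAi, with a log2FC of -0.49 ± 0.08 (SE), did not pass the threshold of 0.5. *fog-3* was therefore not called for both sides of the dip. Of 5 male somatic genes, *mab-3*, *lov-1*, *pkd-2*, *try-5* and *her-1*, also added after seeing the data, 0 passed both tests of the dip, and 3 were higher at days 9 and 11 than at the middle days.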
